A study of Mus musculus with 6 samples.

Results

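The genes described here are the receptors of the tumor necrosis factor (TNF) superfamily, the caspases, and a few proteins that join them, measured in the livers of mice with diet- and toxin-induced non-alcoholic steatohepatitis (NASH). They were chosen by name, whatever their values: every probe set of the Affymetrix MG-430 PM array that names a single gene, where that gene is a Tnfrsf gene with a number, a caspase with a number, or Fas, Tnf, Tnfsf10, Tnfsf12, Bid, Ripk1, Ripk3 or Cflar. This gave 36 genes on 65 probe sets, out of 20670 genes and 45037 probe sets in all. They comprise 19 Tnfrsf genes, 10 caspases and 7 others, and Tnfsf12 is not among them because its probe sets carry several gene names.

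All mice were male C57BL/6J, 6 weeks old on arrival, with 8 in each of 3 groups. Control mice (CTL) ate standard chow and were given the vehicles alone. NASH mice ate a diet with 60% of calories from fat for 24 days, with CCl4, a hepatotoxin, injected at 0.1 ml/kg on days 14, 17, 21 and 24, and T0901317, an agonist of the liver X receptors, at 2.5 ml/kg on 5 days from day 20. NASH+ISO mice had the same diet and injections, and from day 11 also received isorhamnetin, a plant flavonol, at 50 mg/kg by mouth each day, where CTL and NASH mice received its vehicle. Each group is represented by 2 arrays that GEO's labels call technical repeats. No source used here gives the number of mice behind an array, so the errors and p-values below measure the spread between arrays only, which may be technical. NASH was induced here by a liver toxin and a drug that acts on lipid synthesis as well as by diet, and diet, CCl4 and T0901317 cannot be told apart.

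TNF receptors are membrane proteins that bind trimeric ligands. Those with a death domain (Fas, Tnfrsf1a, the TRAIL receptor Tnfrsf10b) can assemble an inner complex that cuts and activates caspase-8, which then activates the executioner caspases, and in hepatocytes this route usually needs Bid, a caspase-8 substrate that carries the signal to mitochondria. Cflar (cFLIP) holds caspase-8 in check, Ripk1 and Ripk3 lead to NF-kB signaling or to necroptosis, and soluble or decoy receptors such as Tnfrsf11b (osteoprotegerin) bind ligand without passing a signal on. Caspases are made as inactive precursors that are switched on by cleavage, so an mRNA level is a level of message and not of caspase activity.

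The deposited values are RMA signals on a log2 scale, and differences below are between group means on that scale. A gene with several probe sets is represented by the probe set with the highest mean over the 6 arrays, and its other probe sets are called dimmer. Array medians lay between 3.46 and 3.50, and over the 65 probe sets the median gap between the arrays of a pair was 0.0454 to 0.0564. The highest value of 17 control probe sets without a target in mouse, 2.90, was taken as a guide to background. Among the 36 genes, 28 had a mean above it in all 3 groups and 1, the BAFF receptor Tnfrsf13c, in NASH+ISO alone. The other 7, Casp1, Ripk3, Tnfrsf10b, Tnfrsf11b, Tnfrsf17, Tnfrsf18 and Tnfrsf25, were not well above background in any group. For these probe sets no fold change is printed, and any log2 difference or call below is of signals near or under background. Of the 6 hepatocyte markers looked up, 5 had a probe set, all above the guide, with a summed linear signal of 21279 to 21894 over the 6 arrays. The ratio of 3′ to 5′ control probe sets, a sign of RNA integrity, moved with the groups: for Gapdh the log2 ratio was 3.79 to 3.82 in CTL, 3.004 to 3.006 in NASH and 3.29 to 3.30 in NASH+ISO, and for Actb 4.88 to 5.00, 4.41 to 4.43 and 4.98 to 5.02. Its part in the differences below was not tested.

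In NASH livers, the TWEAK receptor Tnfrsf12a, the initiator caspase Casp2 and the death receptor Fas were among the genes higher than in CTL, and the TNF receptor Tnfrsf1b, the caspase-8 inhibitor Cflar and several other receptors were lower. In all, 5 genes were higher and 13 lower among the 36 (limma, Benjamini-Hochberg adjusted p under 0.05 over all 45037 probe sets), where 24.7% of all genes were higher and 28.3% lower. The shares of the members were 13.9% and 36.1%. With each array centred on its median, 5 were higher and 8 lower. The median difference was -0.08 over the 36 genes and -0.03 over all genes, and the median size of a difference was 0.129 and 0.161. Counted over probe sets, 34 of 65 passed, 13 higher and 21 lower, against 49.2% of all probe sets, so the share of this family that passed was close to that of the array as a whole. At the study's threshold of a 2-fold change with an unadjusted p under 0.05, 1 of the 65 probe sets passed, against 3.60% of all.

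Between NASH+ISO and NASH, 6 genes were lower with isorhamnetin, among them Tnfrsf12a, Casp2, Casp6, Bid and Cflar, and 9 were higher. The higher genes were Tnfrsf25, Tnfrsf22, Tnfrsf23, Tnfrsf13c, Tnfrsf4, Tnfrsf9, Tnfsf10, Casp12 and Casp14, by 0.13 to 0.31 on the log2 scale, against 19.9% of all genes higher and 19.8% lower. The median over the 36 genes was 0.05, and 0.02 over all genes. Of the 65 probe sets, 27 passed, against 37.2% of all, and 2 passed the 2-fold threshold, against 0.770%. Without NASH+ISO array 2 the count of genes was 9 in place of 15, and with the array spread of each probe set taken alone, with no moderation by limma, it was 9 as well.

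Between NASH+ISO and CTL, 5 genes were higher and 7 lower, against 23.3% and 23.0% of all genes. Casp14, Fas, Tnfrsf22 and Tnfrsf13c were among the higher genes, and Cflar, Tnfrsf1b, Bid, Casp6, Casp1, Tnfrsf10b and Ripk1 were lower. With quantile normalization the split was 3 higher and 9 lower. Over probe sets 27 of 65 passed, against 42.7% of all, and 0 passed the 2-fold threshold, against 2.14%. At an unadjusted p under 0.05 alone, 17 of the 36 genes passed, as did 11108 of all 20670 genes. Without CTL array 1 the count fell from 12 to 6. The 3 comparisons share arrays, so that a high or low NASH or CTL value enters 2 of them.

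**Figure D1:**
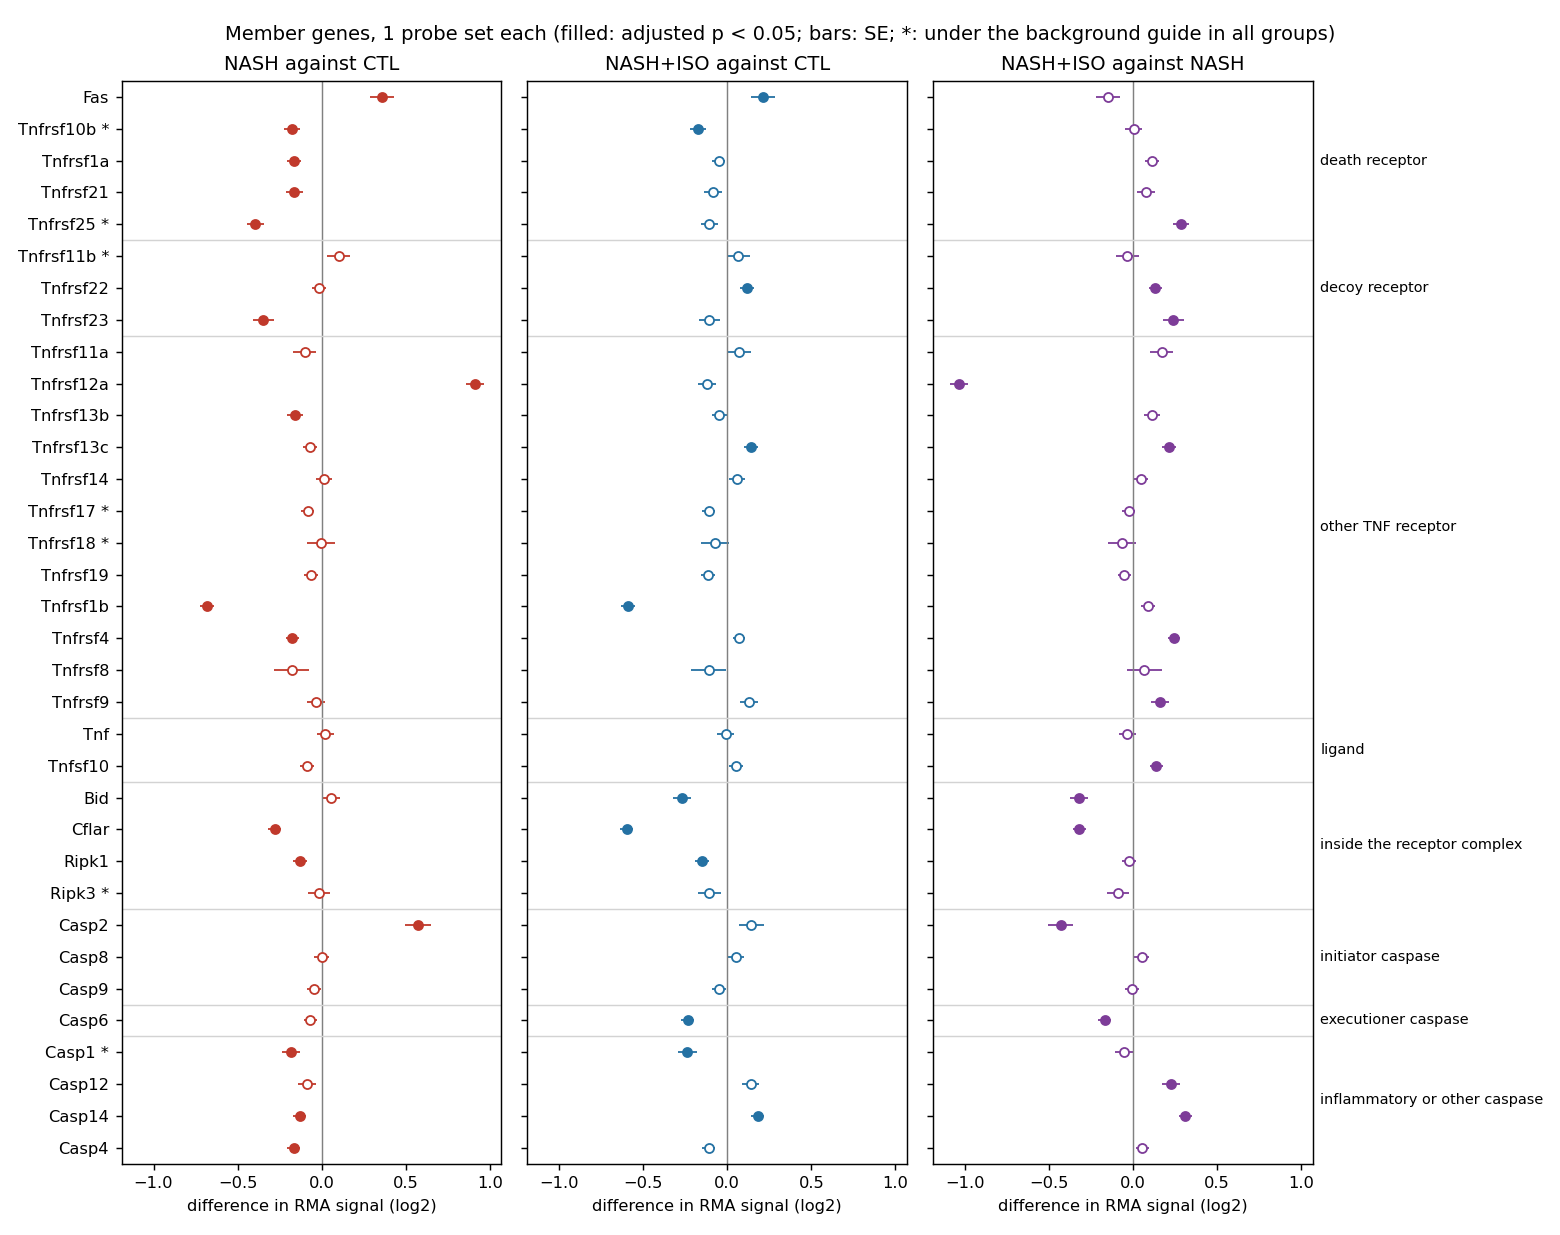
Difference between group means in RMA signal (log2, horizontal axis) for 34 of the 36 genes, grouped by role, in the 3 comparisons; filled points passed limma at adjusted p under 0.05 and bars are SE over 2 arrays per group. Tnfrsf12a stands farthest from 0 in NASH against CTL (0.91) and again, on the other side, in NASH+ISO against NASH (-1.03), while Tnfrsf1b and Cflar lie lowest in NASH+ISO against CTL.

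Among the TNF receptors, by the represented probe sets, Tnfrsf12a differed most between NASH and either other group, and Tnfrsf1b between NASH+ISO and CTL. Tnfrsf12a is the receptor of TWEAK, has no death domain, and is known to be induced in injured liver, where it takes part in progenitor and stellate cell responses. It read 4.77 on both CTL arrays, 5.72 and 5.66 on the NASH arrays and 4.59 and 4.72 on the NASH+ISO arrays. Both NASH arrays lay above all others, and the CTL and NASH+ISO arrays lay close together without overlapping. The difference was 0.91 ± 0.05 (SE, n = 2 arrays per group) for NASH against CTL, a 1.88-fold higher signal (limma adjusted p = 9.52e-06), and -1.03 ± 0.05 for NASH+ISO against NASH, 2.05-fold lower (adjusted p = 2.23e-05). For NASH+ISO against CTL it was -0.12 ± 0.05 (limma adjusted p = 0.108), which passed without NASH+ISO array 2 (adjusted p = 0.0384) and with quantile normalization (adjusted p = 0.0465).

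This probe set is of a kind that Affymetrix marks as holding probes that can match other sequences. The dimmer probe set of Tnfrsf12a carries no such mark. It read 4.74 and 4.83 in CTL, 5.38 and 5.34 in NASH, then 4.50 and 4.41 in NASH+ISO, with both NASH arrays highest and both NASH+ISO arrays lowest. Its differences were 0.57 ± 0.05 for NASH against CTL, -0.90 ± 0.05 for NASH+ISO against NASH and -0.33 ± 0.05 for NASH+ISO against CTL, and all 3 passed limma's test (adjusted p = 8.38e-05, 3.22e-05 and 0.0018). The probe sets thus shared the direction in all 3 comparisons, and NASH+ISO lay below CTL by the test on the dimmer one, and on the brighter one only under those 2 alternatives.

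The gene for osteoprotegerin, Tnfrsf11b, a soluble decoy for the ligands RANKL and TRAIL, showed a similar order of the groups, but on 1 of its 2 probe sets alone, which was singled out after its values had been seen. On the probe set with the higher mean the 6 arrays lay between 2.69 and 2.89, all under the background guide, and no comparison passed. On the dimmer one the CTL arrays read 1.93 and 1.92, the NASH arrays 3.43 and 3.63 and the NASH+ISO arrays 1.67 and 1.98. Both NASH arrays were above the background guide and all 4 others below it. The measured differences were 1.61 ± 0.10 for NASH against CTL (limma adjusted p = 1.74e-05) and -1.71 ± 0.10 for NASH+ISO against NASH (adjusted p = 4.44e-05). Because the other groups were not well above background, the NASH signal was at least 1.55-fold higher than in either, taking the guide as the floor. This probe set is the one that passed the 2-fold threshold in NASH against CTL, and it and the brighter Tnfrsf12a probe set are those that passed in NASH+ISO against NASH.

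The summed markers of stellate cells and macrophages were also highest in NASH. Stellate cell markers had a summed linear signal of 586.6 to 594.5 in CTL, 846.3 to 864.3 in NASH and 516.7 to 517.7 in NASH+ISO, over 7 of 7 markers, of which NASH against CTL gave 4 higher and 2 lower and NASH+ISO against NASH gave 5 lower. Pdgfrb, the PDGF receptor of stellate cells, differed by 1.80 and then by -1.63, and Col1a1, a fibrillar collagen chain, by 1.13 and then by -1.13, but Acta2, the smooth muscle actin of activated stellate cells, by 1.43 and then by only -0.14. Kupffer cell markers summed to 340.1 to 345.7, 626.5 to 635.5 and 412.0 to 418.7 (6 of 6 with a probe set), and recruited macrophage markers to 108.4 to 108.5, 360.5 to 365.0 and 199.6 to 204.0 (7 of 7, with Itgam under the guide throughout). In NASH against CTL, 3 markers of each list were higher and 0 lower, with median differences of 0.245 and 0.0885. In NASH+ISO against NASH, 0 and 1 were higher and 4 and 3 lower. In NASH+ISO against CTL, 2 and 3 were higher and 1 of each list was lower. Within those lists the defining markers Clec4f of Kupffer cells and Ccr2 of recruited monocytes did not pass in any comparison, with differences of -0.10 to 0.09 for NASH and NASH+ISO against CTL. Endothelial markers summed to 276.6 to 282.9, 275.3 to 279.2 and 398.5 to 400.0. The hepatocyte sum was nearly level, but of its 5 markers 0 were higher and 1 lower in NASH against CTL. In NASH+ISO against CTL, 1 of the 5 was higher and 2 were lower. In whole liver, more cells of a type and more RNA per cell cannot be told apart, and the part of these cell types in the values of Tnfrsf12a, Tnfrsf11b or any other gene was not tested.

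**Figure D2:**
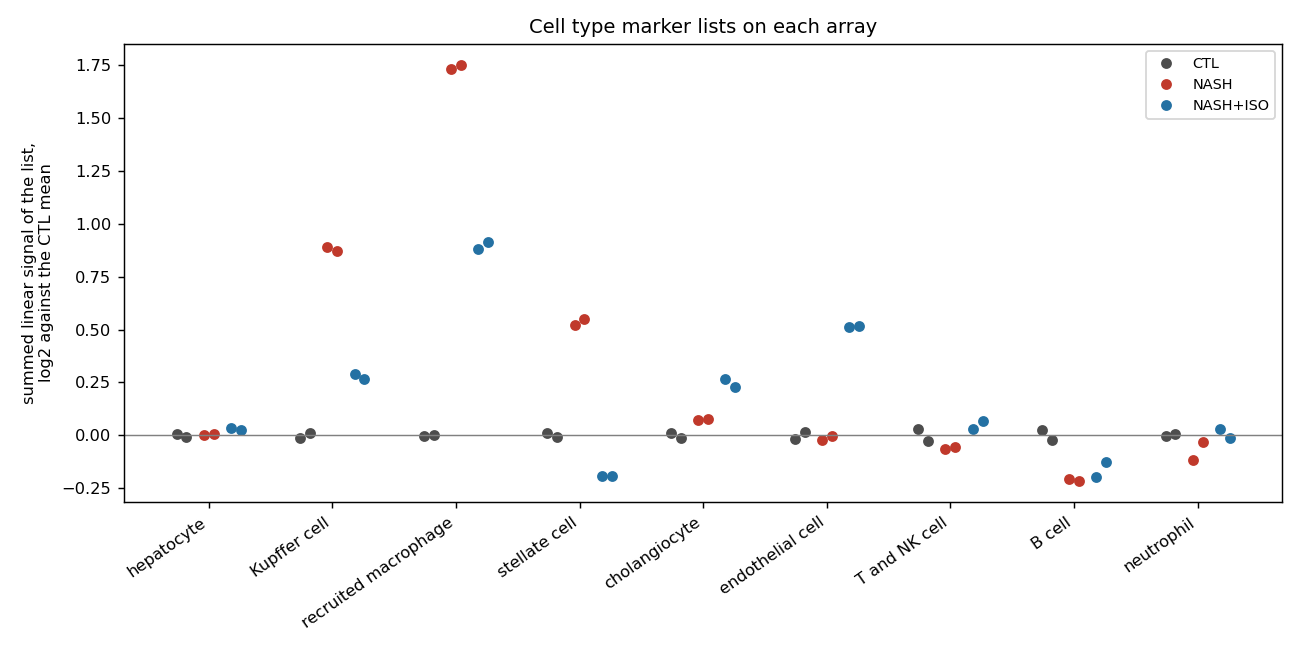
Summed linear signal of each cell type marker list on each of the 6 arrays, as log2 against the mean of the CTL arrays (vertical axis), with points colored by group. Kupffer cell, recruited macrophage and stellate cell lists were highest on the NASH arrays, the endothelial list was highest on the NASH+ISO arrays, and the hepatocyte list lay between -0.01 and 0.03 throughout.

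The receptor for TNF on leukocytes and endothelium, Tnfrsf1b (TNFR2), was lower in both NASH groups. It read 5.99 and 5.95 in CTL, 5.27 and 5.32 in NASH, then 5.40 and 5.36 in NASH+ISO. Both CTL arrays lay above the 4 others, and the NASH and NASH+ISO arrays lay close together without overlapping. The difference was -0.68 ± 0.04 for NASH (1.60-fold lower, limma adjusted p = 1.33e-05) and -0.59 ± 0.04 for NASH+ISO (1.51-fold lower, adjusted p = 3.88e-05) against CTL, and 0.09 ± 0.04 for NASH+ISO against NASH (adjusted p = 0.142). Its dimmer probe set gave -0.36, -0.32 and 0.03 in the same order, with the same calls.

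The main receptor of TNF on hepatocytes, Tnfrsf1a (TNFR1), read 7.06 on both CTL arrays, 6.87 and 6.92 in NASH, then 7.001 and 7.02 in NASH+ISO. NASH was lowest and no groups overlapped, but the differences were small: -0.16 ± 0.04 for NASH against CTL (limma adjusted p = 0.0117), -0.05 ± 0.04 for NASH+ISO against CTL (adjusted p = 0.337) and 0.11 ± 0.04 for NASH+ISO against NASH (adjusted p = 0.0609). Without NASH array 1 the first no longer passed (adjusted p = 0.0741), and with the log2 values of the authors' workbooks it was -0.04 (adjusted p = 0.358). The single probe set of Tnf, the cytokine itself, read 3.40 and 3.36 in CTL, 3.44 and 3.36 in NASH, then 3.42 and 3.32 in NASH+ISO. The 3 groups overlapped, the differences were 0.02, -0.01 and -0.03, each with an SE of 0.05, and none passed limma's test (adjusted p = 0.743, 0.889 and 0.647).

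Fas, the death receptor of Fas ligand, to which hepatocytes are known to be sensitive, was higher in NASH. Its single probe set read 4.80 and 4.94 in CTL, 5.21 and 5.25 in NASH, then 4.99 and 5.17 in NASH+ISO, so NASH was highest, CTL lowest, and NASH+ISO between them, with no overlap. The difference was 0.36 ± 0.07 for NASH against CTL (1.28-fold, limma adjusted p = 0.00467), 0.21 ± 0.07 for NASH+ISO against CTL (adjusted p = 0.046) and -0.15 ± 0.07 for NASH+ISO against NASH (adjusted p = 0.147). The call for NASH+ISO against CTL was kept in 7 of 14 alternatives, over which the difference ranged from 0.12 to 0.30. It was lost when CTL array 1, NASH+ISO array 2 or either NASH array was left out. It was also lost without moderation, with quantile normalization and with only the 4 arrays compared. The NASH call was lost without moderation (adjusted p = 0.0732).

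The other death receptors were lower in NASH than in CTL by their represented probe sets: Tnfrsf21 (DR6) by -0.16 (adjusted p = 0.0345), Tnfrsf10b, the mouse TRAIL receptor, by -0.18 (0.0207), and Tnfrsf25 (DR3) by -0.39 (0.000451), the last 2 under the background guide on all arrays. For Tnfrsf21 the dimmer probe set went the other way, 0.25 higher in NASH than in CTL (limma adjusted p = 0.0115) and -0.23 in NASH+ISO against NASH (adjusted p = 0.021), so the direction of this gene depends on the probe set. Counted as a group, 1 of the 5 death receptors was higher in NASH and 4 were lower, where 24.7% and 28.3% of all genes were. The count of 4 lower fell when any single array was left out.

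Of the other receptors, the mouse decoy TRAIL receptor Tnfrsf23 was lower in NASH by -0.35 (limma adjusted p = 0.00316) and 0.24 higher in NASH+ISO than in NASH (adjusted p = 0.0221). Tnfrsf4 (OX40), a costimulatory receptor of T cells, differed by -0.17 and 0.24 in the same comparisons (adjusted p = 0.00728 and 0.00235). Both genes thus lay lowest in NASH. Tnfrsf13b (TACI), a receptor of B cells, was lower in NASH by -0.16 (limma adjusted p = 0.0256), a call kept in 7 of 14 alternatives. In NASH+ISO it did not differ from CTL by the test (-0.05, adjusted p = 0.461). The B cell marker sum was 48.3 to 49.8 in CTL, 42.2 to 42.5 in NASH and 42.8 to 44.9 in NASH+ISO. Of its 4 markers, 2 were lower and 0 higher in NASH, and 1 lower and 1 higher in NASH+ISO, against CTL. Tnfrsf13c (BAFF receptor), also of B cells, read 2.77 to 2.999, with CTL and NASH not well above background, and was at least 1.07-fold higher in NASH+ISO than in NASH (limma adjusted p = 0.00652). For Tnfrsf19 (TROY) 1 dimmer probe set, not well above background in CTL, was at least 1.25-fold higher in NASH and at least 1.24-fold higher in NASH+ISO (limma adjusted p = 0.000328 and 0.000494), and the represented one did not pass, with differences of -0.06 and -0.11. Tnfrsf22, a decoy, and Tnfrsf9 (4-1BB) passed only at 0.12 to 0.16 and at adjusted p of 0.0358 to 0.0491, and the remaining receptors, Tnfrsf8, Tnfrsf11a, Tnfrsf14, Tnfrsf17 and Tnfrsf18, did not pass in any comparison, with differences of -0.18 to 0.17.

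The gene for TRAIL, Tnfsf10, a ligand of the death receptors that natural killer cells and hepatocytes can make, differed by -0.09 and 0.05 against CTL on its brightest probe set, which did not pass, and by 0.14 between NASH+ISO and NASH, which did (limma adjusted p = 0.0351). A dimmer probe set read 3.59 and 3.61 in CTL, 3.84 and 3.88 in NASH, then 4.00 and 4.04 in NASH+ISO, in 3 separate steps (adjusted p = 0.00141 for NASH and 0.000173 for NASH+ISO against CTL). The remaining probe set lay under the background guide, at 2.63 to 2.87.

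**Figure D3:**
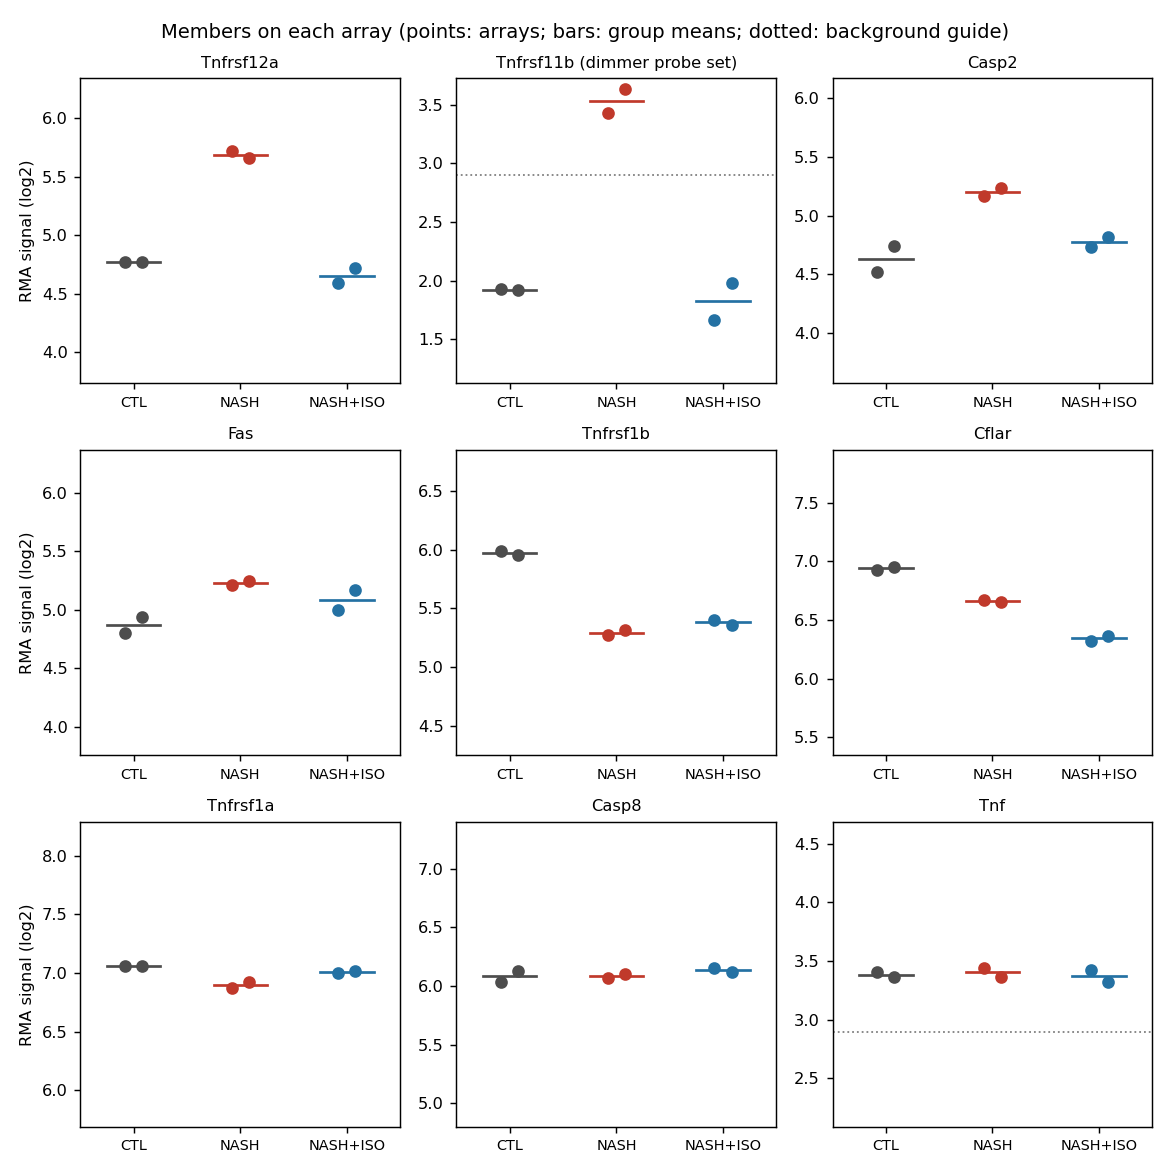
RMA signal (log2, vertical axis) of 9 genes on each of the 6 arrays, with 1 point per array, bars for the group means and the background guide dotted where it falls in view; all panels span the same range. Tnfrsf12a, Tnfrsf11b (dimmer probe set) and Casp2 are highest in NASH, Tnfrsf1b and Cflar are highest in CTL, and Casp8 and Tnf are level.

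Inside the receptor complex, the regulator of caspase-8, Cflar, was lower in NASH and lower still in NASH+ISO. Its brightest probe set read 6.92 and 6.95 in CTL, 6.67 and 6.66 in NASH, then 6.32 and 6.36 in NASH+ISO, in 3 separate steps. The differences were -0.28 ± 0.04 for NASH (limma adjusted p = 0.000969) and -0.60 ± 0.04 for NASH+ISO (1.51-fold lower, adjusted p = 2.78e-05) against CTL, and -0.32 ± 0.04 for NASH+ISO against NASH (adjusted p = 0.000878). In NASH+ISO against CTL, 4 of its 5 probe sets were lower (-0.30 to -0.60) and the fifth, with -0.05, did not pass.

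For NASH against CTL the probe sets of Cflar did not share a direction. A second one read 5.81 and 5.87 in CTL, 6.03 and 6.08 in NASH, then 5.42 and 5.37 in NASH+ISO, highest in NASH (difference 0.21, limma adjusted p = 0.00604, which did not pass with quantile normalization). Another read 6.13 and 6.14, then 5.49 and 5.37, then 5.55 and 5.63, lowest in NASH (-0.71, adjusted p = 3.52e-05). Cflar is known to be spliced into a long and a short form, and which transcript each probe set reads is not annotated in the files used here.

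The other proteins of the complex differed less. Bid was lower in NASH+ISO than in CTL and in NASH, by -0.27 and -0.32 (limma adjusted p = 0.00596 and 0.00326), while NASH and CTL differed by 0.05 (adjusted p = 0.437). Its second probe set above the background guide did not pass in any comparison, with differences of at most 0.09. Ripk1, the kinase that binds TNFR1, was lower in NASH and NASH+ISO by -0.13 and -0.15 on its brightest probe set (limma adjusted p = 0.0403 and 0.0229). On another it was higher by 0.30 and 0.25 (limma adjusted p = 0.00627 and 0.0147). Its remaining probe set was lower in NASH+ISO than in CTL (-0.27, limma adjusted p = 0.0345) and did not pass in NASH (-0.09). The NASH call of the brightest probe set and the NASH+ISO call of the remaining one were each kept in 7 of 14 alternatives. Ripk3, the kinase of necroptosis, known to be scarce in hepatocytes, lay between 2.72 and 2.95, around the background guide, and did not pass.

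Among the initiator caspases, Casp2, which is activated through the PIDDosome, was higher in NASH. It read 4.52 and 4.74 in CTL, 5.17 and 5.24 in NASH, then 4.73 and 4.82 in NASH+ISO, so that NASH stood above all other arrays and CTL and NASH+ISO overlapped. The difference was 0.57 ± 0.07 for NASH against CTL (1.49-fold, limma adjusted p = 0.000623), -0.43 ± 0.07 for NASH+ISO against NASH (1.35-fold lower, adjusted p = 0.00401) and 0.14 ± 0.07 for NASH+ISO against CTL (adjusted p = 0.168). The last passed when CTL array 2, the higher CTL array, was left out (adjusted p = 0.0242), and the NASH+ISO against NASH call did not pass without moderation (adjusted p = 0.0768).

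Caspase-8, the initiator of the death receptors, was level: Casp8 read 6.03 and 6.13 in CTL, 6.06 and 6.10 in NASH, then 6.15 and 6.12 in NASH+ISO. CTL and NASH overlapped, and the differences were 0.00, 0.05 and 0.05, each with an SE of 0.05 (limma adjusted p = 0.998, 0.403 and 0.415). In the mouse RefSeq table Casp8 is the protein-coding gene next to Cflar on chromosome 1. Casp9, the initiator of the mitochondrial route, did not pass in any comparison on its brightest probe set (-0.04, -0.05 and -0.01), and of its dimmer ones 1 was lower in NASH by -0.22 (limma adjusted p = 0.0153) and 1 higher in NASH+ISO than in CTL by 0.25 (adjusted p = 0.00349).

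The executioner caspase Casp6, which did not differ by the test between NASH and CTL (-0.07, adjusted p = 0.177), was lower in NASH+ISO than in CTL by -0.24 (limma adjusted p = 0.0021) and than in NASH by -0.17 (adjusted p = 0.0118). Its dimmer probe set was lower in NASH (-0.29, limma adjusted p = 0.00205) and 0.15 higher in NASH+ISO than in NASH (adjusted p = 0.042). The latter call was kept in 5 of 14 alternatives.

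Of the 4 inflammatory or other caspases, 3 passed an unadjusted p under 0.05 in NASH against CTL, as did 12195 of all 20670 genes. By limma's adjusted p, 0 were higher and 3 lower, where 24.7% and 28.3% of all genes were. The 3 became 1 without CTL array 1 and 0 without NASH array 1. Casp4 (caspase-11), which senses bacterial lipopolysaccharide inside cells, was lower in NASH by -0.17 (limma adjusted p = 0.00982), and Casp1, the caspase of inflammasomes, was lower in NASH and NASH+ISO by -0.18 and -0.24 at values of 2.53 to 2.83, under the background guide. For Casp12, the represented probe set was higher in NASH+ISO than in NASH (0.23, limma adjusted p = 0.0136) and the dimmer one, not well above background in NASH+ISO, at least 1.16-fold lower (adjusted p = 0.00166). Casp14, known from skin, had a represented probe set of the kind that can match other sequences, which was lowest in NASH (-0.13 against CTL, limma adjusted p = 0.0294) and highest in NASH+ISO (0.18 against CTL and 0.31 against NASH, adjusted p = 0.00905 and 0.000945). Its other probe set lay under the background guide.

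**Figure D4:**
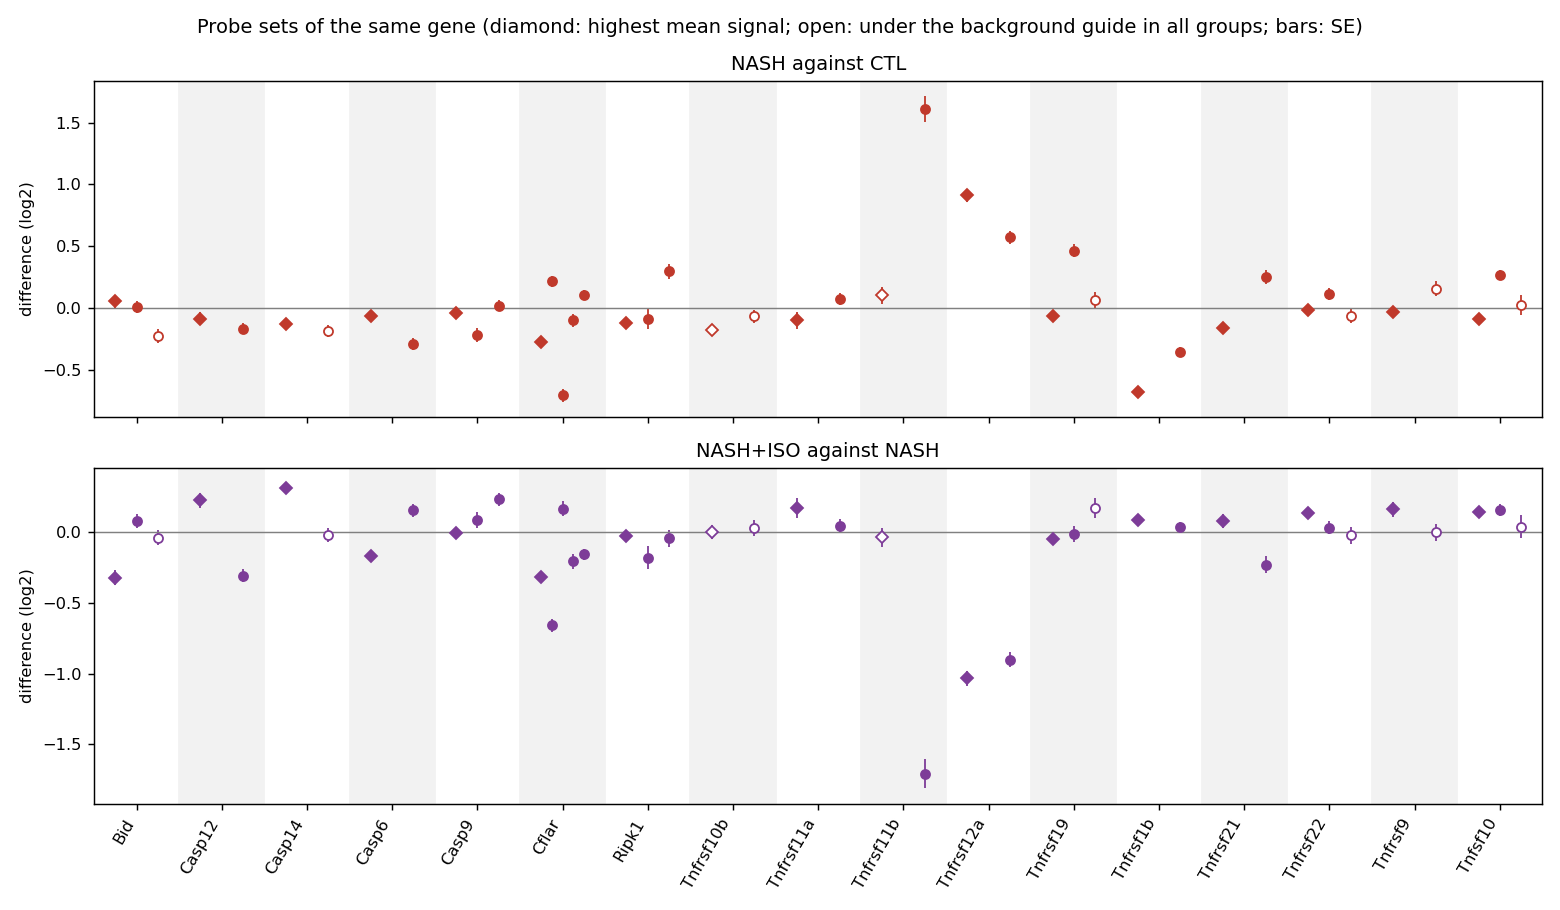
Difference in RMA signal (log2, vertical axis; bars are SE over 2 arrays per group) of every probe set of 17 of the 19 genes with 2 or more probe sets, for NASH against CTL (top) and NASH+ISO against NASH (bottom); diamonds mark the probe set with the highest mean and open symbols lie under the background guide in all groups. Cflar, Ripk1 and Tnfrsf21 have probe sets called in both directions in NASH against CTL, and both Tnfrsf12a probe sets lie far on the same side.

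Probe sets of the same gene often disagreed. Of the 19 genes with 2 or more probe sets, all probe sets passed in the same direction in NASH against CTL for 4 (among them Tnfrsf12a, higher, and Tnfrsf1b and Casp14, lower), 4 had probe sets that passed in both directions, 8 had some that passed and some that did not, and 3 had none that passed. In NASH+ISO against NASH all passed in the same direction for 1, Tnfrsf12a, and 4 had both directions, among them Casp6, Casp12 and Cflar. For Casp6 and Cflar the higher call, on 1 dimmer probe set each, was kept in only 5 of 14 alternatives. In NASH+ISO against CTL all passed in the same direction for 1, Tnfrsf1b. With 1 probe set per gene, 8 of the 18 calls of NASH against CTL were kept under every alternative of the processing in which the probe set was tested (among them Casp2, Cflar, Tnfrsf12a, Tnfrsf1b, Tnfrsf25 and Tnfrsf4). The same held for 5 of 12 in NASH+ISO against CTL (among them Casp6, Casp14, Cflar and Tnfrsf1b) and 7 of 15 in NASH+ISO against NASH (among them Casp14, Cflar, Tnfrsf12a, Tnfrsf13c, Tnfrsf25 and Tnfrsf4).

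The 4 genes above the background guide with a difference of at least 0.5 on their brightest probe set, 2 that were higher in NASH and 2 that were lower in both NASH groups, are shown by their promoters, to set these groups side by side. Each window runs from 250 bases before to 50 after the transcription start in RefSeq (GRCm38.p6), and a promoter was found for 31 of the 36 genes. They lie at chr17:23677400-23677699 (minus strand, Tnfrsf12a), chr6:42264735-42265034 (plus strand, Casp2), chr4:145246821-145247120 (minus strand, Tnfrsf1b) and chr1:58711241-58711540 (plus strand, Cflar). Capitals mark matches, on either strand, to the GC box GGGCGG, the E2F motif TTTNNCGC, the STAT motif TTCNNNGAA and the TATA box TATAAA, where N is any base; overlapping matches run together.
Tnfrsf12a: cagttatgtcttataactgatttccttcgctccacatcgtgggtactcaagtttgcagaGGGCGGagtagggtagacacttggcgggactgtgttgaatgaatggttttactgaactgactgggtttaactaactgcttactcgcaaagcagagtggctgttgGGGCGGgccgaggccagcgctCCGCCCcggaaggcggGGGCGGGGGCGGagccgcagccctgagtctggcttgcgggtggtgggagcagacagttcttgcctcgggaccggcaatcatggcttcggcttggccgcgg
Casp2: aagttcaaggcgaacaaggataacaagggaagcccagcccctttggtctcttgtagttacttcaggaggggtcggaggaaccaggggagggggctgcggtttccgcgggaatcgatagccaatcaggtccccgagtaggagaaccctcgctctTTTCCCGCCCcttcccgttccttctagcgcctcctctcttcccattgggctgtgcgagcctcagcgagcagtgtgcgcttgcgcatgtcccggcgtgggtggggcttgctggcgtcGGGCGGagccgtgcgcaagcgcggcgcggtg
Tnfrsf1b: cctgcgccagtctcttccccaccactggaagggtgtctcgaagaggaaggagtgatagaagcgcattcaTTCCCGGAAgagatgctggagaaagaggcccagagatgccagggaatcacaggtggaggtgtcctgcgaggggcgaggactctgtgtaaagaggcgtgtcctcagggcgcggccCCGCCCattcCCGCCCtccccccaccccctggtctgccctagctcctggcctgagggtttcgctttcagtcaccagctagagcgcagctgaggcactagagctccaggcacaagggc
Cflar: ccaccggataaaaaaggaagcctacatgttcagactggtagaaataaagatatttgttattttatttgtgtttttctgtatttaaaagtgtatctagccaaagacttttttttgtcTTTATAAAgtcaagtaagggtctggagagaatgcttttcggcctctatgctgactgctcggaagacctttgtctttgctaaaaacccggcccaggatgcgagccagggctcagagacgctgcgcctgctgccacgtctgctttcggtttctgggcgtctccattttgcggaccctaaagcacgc
The window of Tnfrsf12a holds 5 GC boxes and none of the other motifs, that of Casp2 holds 2 GC boxes and an E2F match that overlaps 1 of them, that of Tnfrsf1b holds 2 GC boxes and a STAT match, and that of Cflar holds 2 overlapping TATA matches and no GC box. GC boxes occur in 35.7% of the 32851 promoters in the table, TATA boxes in 13.6%, STAT matches in 8.30% and E2F matches in 5.17%. The AP-1 motif TGANTCA (7.81%) and the NF-kB motif (4.51%) were also searched on both strands and have no match in these 4 windows. Among the 31 genes AP-1 matches lie in Fas, Tnfrsf8 and Tnfrsf9, and NF-kB matches in Casp4, Tnfrsf8 and Tnfrsf9. These are matches of letters in a short window and were not set against binding data.

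Genes around the receptors and caspases were taken from 8 lists made by role, which were chosen with earlier results of these data known. Over all genes, 24.7% were higher and 28.3% lower in NASH against CTL, 23.3% and 23.0% in NASH+ISO against CTL, and 19.9% and 19.8% in NASH+ISO against NASH, and the counts below stand beside these shares. Of 12 other TNF superfamily ligands measured, 0 were higher and 4 (33.3%) lower in NASH than in CTL by limma, a share lower near that of all genes. The same counts held for NASH+ISO against CTL. In both comparisons fewer were lower when any single array other than CTL array 2 was left out. At an unadjusted p under 0.05, 4 and 6 passed in these comparisons, as did 12195 and 11108 of all 20670 genes. Tnfsf8 (CD30 ligand) differed by -0.37 in NASH and Eda by -0.26, and Cd70, a ligand of lymphocytes, was called lower there with all its group means under the background guide. Of 7 receptors without a Tnfrsf symbol, 1 was higher and 1 lower in NASH, and Eda2r, the receptor of ectodysplasin A2 and a known p53 target, was not well above background in CTL, at least 1.08-fold higher in NASH and at least 1.34-fold higher in NASH+ISO, which was 0.31 above NASH.

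Of 23 adaptors and ubiquitin enzymes that act on the receptors, 12 were higher and 7 lower in NASH, 8 and 8 in NASH+ISO against CTL, and 2 and 7 in NASH+ISO against NASH, with medians of 0.12, 0.04 and -0.04. The 12 became 7 without CTL array 1. Traf3, an adaptor that restrains noncanonical NF-kB signaling, differed by 0.89 in NASH and 0.46 in NASH+ISO against CTL, Ikbkb (IKK2) by 0.65 and 0.61, and Ikbkg (NEMO), the regulatory subunit of the same kinase, by -0.80 and -0.83. Otulin, which removes linear ubiquitin chains, differed from CTL by 0.32 in NASH and by -0.33 in NASH+ISO. Of 16 NF-kB subunits and targets, 5 were higher and 5 lower in NASH, and 3 and 6 in NASH+ISO against CTL. The targets did not move together: the chemokine Cxcl1 was lower (-1.42 in NASH, -0.91 in NASH+ISO), as were Nfkbiz (-0.79, -0.45) and the inhibitor Nfkbia (-0.71, -0.58), while the adhesion molecule Vcam1 was higher (0.68, 0.74). Cxcl10, an interferon-induced chemokine, was higher in NASH (0.56) and lower in NASH+ISO (-0.12) than in CTL, and had the largest difference of the list between NASH+ISO and NASH (-0.68).

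Downstream, genes of the apoptosome, caspase inhibitors and substrates were higher in NASH in 13 of 18 cases (72.2%) and lower in 3 (16.7%), with a median of 0.23, where 24.7% of all genes were higher and 28.3% lower, with a median of -0.03. Birc5 (survivin), which also marks dividing cells, differed by 1.24 in NASH and 0.85 in NASH+ISO, Apaf1, the scaffold that activates caspase-9, by 0.74 and 0.80 from CTL arrays of which 1 of 2 lay under the background guide, and Cycs, somatic cytochrome c, by 0.67 and 0.52. Casp8ap2, a caspase-8-associated protein that also takes part in histone gene expression, was higher in NASH (0.97), lower in NASH+ISO than in CTL (-0.35) and differed by -1.32 between NASH+ISO and NASH. In NASH+ISO against CTL, 10 were higher and 3 lower, and in NASH+ISO against NASH 3 and 6.

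Of 5 survival members of the BCL2 family, 0 were higher and 2 lower in NASH (Mcl1 by -0.32 and Bcl2l1 by -0.15) by limma, and 0 higher and 2 lower in NASH+ISO (Bcl2 by -0.27 and Mcl1 by -0.13). At an unadjusted p under 0.05, 2 of them passed in each comparison with CTL, as did 12195 and 11108 of all 20670 genes. Bcl2, which did not pass in NASH against CTL (-0.04), was also lower in NASH+ISO than in NASH (-0.23). The 2 in NASH became 1 without CTL array 2 or either NASH array, and the 2 in NASH+ISO became 1 without any single array other than CTL array 1. Of 11 death members, 2 were higher and 4 lower in NASH, and 4 were higher and 2 lower in NASH+ISO than in NASH. The shares lower and higher in NASH, 36.4% and 18.2%, stand beside 28.3% and 24.7% of all genes, and those in NASH+ISO against NASH, 18.2% and 36.4%, beside 19.8% and 19.9%. Without NASH array 1 the last comparison had 3 higher and 0 lower. Bmf, a BH3-only protein, was the farthest from CTL (-1.39 in NASH, -0.84 in NASH+ISO), followed by the effector Bak1 (0.68, 0.60) and the BH3-only protein Bik (-0.63 in NASH). Bbc3 (PUMA), a p53 target, was higher in both NASH groups (0.34, 0.62) and 0.28 higher in NASH+ISO than in NASH. Of 11 genes of necroptosis and pyroptosis, 4 were higher and 1 lower in NASH, and 4 and 2 in NASH+ISO against CTL. Mlkl, which opens the membrane in necroptosis, was not well above background in CTL and at least 1.53-fold higher in NASH and 1.59-fold higher in NASH+ISO. Gsdmd, the pore of pyroptosis, was higher in both (0.47, 0.42), while the cytokine Il18 was lower (-0.54, -0.65).

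**Figure D5:**
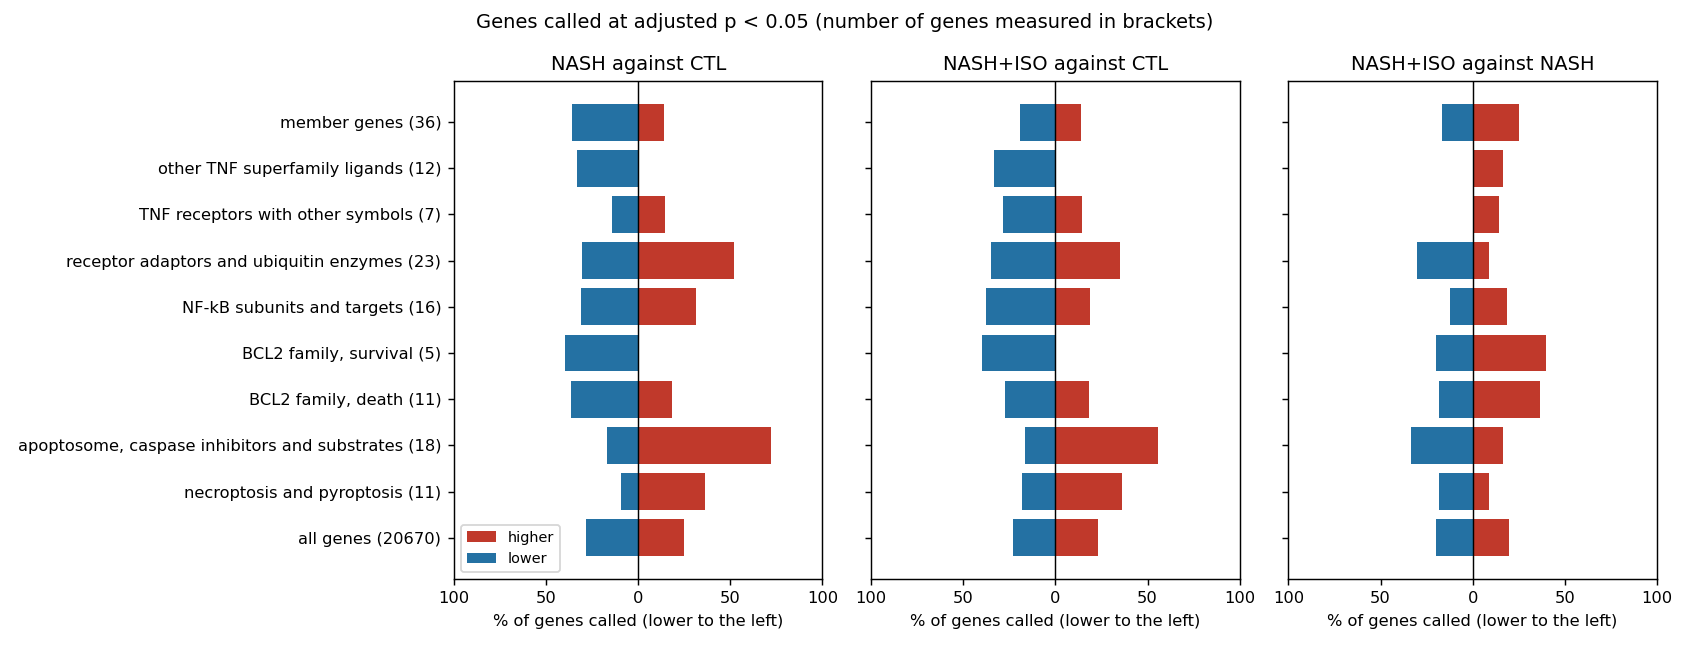
Percent of genes called higher (red, to the right) and lower (blue, to the left) by limma at adjusted p under 0.05 in the 36 genes, the 8 lists around them and all genes, with the number of genes measured in brackets, for the 3 comparisons. The apoptosome list reaches farthest to the right in both comparisons with CTL, and no ligand was called higher there.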

How the data were processed

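Liver RNA was labelled with the GeneChip 3′ IVT kit and hybridized to MG-430 PM arrays, 2 per group. The authors deposited log2 values made with RMA in Affymetrix Expression Console, which corrects background, makes the arrays' distributions of single-probe signals equal and gives 1 value for all probes of a set. The values they deposited still had array medians of 3.46 to 3.50. Their workbooks, from Transcriptome Analysis Console, hold a second set of log2 values, which served as an alternative and named the probe sets, and fold changes and p-values that the authors computed, which were not used. From 45141 entries, 104 control probe sets were left out. Groups were compared in limma 3.58.1 (R 4.3.3) with 3 group means over all 6 arrays (3 residual and 4.01 prior degrees of freedom, prior SD 0.0487 log2) and Benjamini-Hochberg adjustment over 45037 probe sets. With 2 arrays per group, the number of arrays limits the precision. The code for fit and calls was run on simulated arrays with independent noise and few probe sets changed, in NASH alone. That setting is unlike these data, so it does not show how reliable the calls are.

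The genes and lists were chosen with earlier results of these data known. All 36 members matched RefSeq by symbol. Probe sets with several gene names were left out, 3 of them holding a name of the family. All 6 values are printed for genes above the background guide with a called difference of at least 0.5, and for Fas, Tnf, Tnfrsf1a and Casp8. Single-gene results of 2 members are not reported here, and both remain in the counts and fits. Others are given by range and count, and each list by called genes among the 4 with the largest difference in a comparison. Same-numbered arrays did not deviate together (correlations of 0.0465 to 0.0916). Alternatives were another fit, prior, normalization, filter, fold threshold or value set, the mean of a gene's probe sets, a replicate block, and leaving out each array. Python 3.11.15 was used for tables (pandas 2.3.3, numpy 2.4.6) and for drawing (matplotlib 3.10.9).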

Additional observations from a re-analysis of the deposited data

How the results depend on the processing

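The count of member genes in NASH+ISO against CTL, 12, ranged from 6 (without CTL array 1) to 12 when an array was left out. That in NASH+ISO against NASH, 15, ranged from 9 (without NASH+ISO array 2) to 14, and was 9 without moderation. That in NASH against CTL, 18, stayed within 1.5 times under each alternative and was lowest, at 12, without CTL array 1 or NASH array 1. Of the member probe sets past 2-fold, the 1 in NASH against CTL became 4 at a fold change of at least 1.5 and 0 when only probe sets above the background guide were tested. The 0 in NASH+ISO against CTL became 2 at 1.5-fold. The 2 in NASH+ISO against NASH became 4 at 1.5-fold, 1 at 3-fold and 1 above the background guide, and ranged from 1 (without NASH+ISO array 1) to 2. The filter removes the Tnfrsf11b probe set, which is dim in CTL and NASH+ISO; the cause of the other shifts was not tested. With a replicate block the counts were 18, 12 and 15, and 1, 0 and 2 at 2-fold, but same-numbered arrays share only a number. The calls of single genes were less stable: over the 45 calls of member genes, 505 of 622 values under alternatives kept the call, 117 lost it and 0 reversed, and of 866 values of genes not called 29 gained a call. These figures leave out the mean of a gene's probe sets. For 11 probe sets followed singly, mostly those with large differences or a central role, that alternative was included. Of their values 470 of 492 were kept, 13 lost, 9 gained and 0 reversed. Signal over background limits the 7 genes under the guide.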
